A study of Mus musculus with 9 samples.

Results

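The genes described here are 9 genes of the mouse whose human counterparts are linked to coloboma or to other malformations of the eye: Chd7, Bcor, Sall2, Tfap2a, Mab21l1, Mab21l2, Gdf6, Abcb6 and Actg1. They were read on Affymetrix Mouse Genome 430 2.0 arrays through the probe sets that the platform annotation gives to 1 gene symbol only. Of the 18193 genes with such a probe set, 8 are of these 9, with 14 probe sets between them. Gdf6 had no probe set under its symbol and is not analysed here. Where a gene had several probe sets, the one with the highest mean over all 9 arrays gave its main value, and the others are reported beside it. All 8 genes passed the filter on dim genes, which left 12773 genes, and Tfap2a was the only one that lay below the filter's level on some arrays.

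The samples were total RNA from the optic cup of E11.5 mouse embryos, cut out by laser microdissection. Fissure samples took the cup cells lying up to 5 cell diameters from the margin of the optic fissure, nasal samples the centre of the nasal cup and temporal samples the centre of the temporal cup. Each region has 3 arrays from biological replicates, lettered A, B and C. Strain, genotype and the number of embryos in a sample are not given in the sources used here. Nor is it given whether equal letters mark the same embryos, and the p-values cover only the spread among these 9 samples. The comparisons ask which genes differ between the fissure margin and the centres of the nasal and temporal cup, and between the nasal and temporal centres. Other parts of the cup were not sampled.

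The optic fissure is a groove along the underside of the cup and stalk whose margins meet and fuse in the embryo. Where fusion fails, a gap called a coloboma stays in the iris, retina or optic nerve. The 9 genes act at different levels. Chd7, the gene of CHARGE syndrome, encodes a chromatin remodeller, and Bcor, the gene of oculofaciocardiodental syndrome, encodes a corepressor that works with BCL6 and in a Polycomb complex. Sall2 encodes a zinc finger transcription factor, and Tfap2a encodes AP-2 alpha, the factor affected in branchio-oculo-facial syndrome. Mab21l1 and Mab21l2 are close relatives needed for growth of the lens and retina. Gdf6 encodes a secreted ligand of the BMP family, Abcb6 a membrane transporter linked to porphyrins, and Actg1 cytoplasmic gamma-actin, which is altered in Baraitser-Winter syndrome.

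Promoter windows are shown for Sall2 and Mab21l2, the members with the largest differences at the fissure. The windows come from RefSeq sequences on build GRCm38.p6, which hold 6 of the 9 genes, and each gives the 250 bases before an annotated start, 5′ to 3′ on the gene's minus strand. Sall2 has starts 12347 bases apart, both shown. Capitals mark matches to 6 motifs searched on both strands: TATAAA, the core of a TATA box, CCAAT, the box of that name, GGGCGG, a GC box, CACGTG, an E-box, TAATTA, a homeodomain core, and AGGTCA, a nuclear receptor half-site.
Sall2, chr14:52328671-52328920: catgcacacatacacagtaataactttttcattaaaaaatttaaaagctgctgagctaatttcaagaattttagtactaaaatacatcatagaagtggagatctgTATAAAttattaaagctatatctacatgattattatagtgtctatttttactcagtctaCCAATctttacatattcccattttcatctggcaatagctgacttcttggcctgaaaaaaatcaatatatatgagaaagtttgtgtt
Sall2, chr14:52316324-52316573: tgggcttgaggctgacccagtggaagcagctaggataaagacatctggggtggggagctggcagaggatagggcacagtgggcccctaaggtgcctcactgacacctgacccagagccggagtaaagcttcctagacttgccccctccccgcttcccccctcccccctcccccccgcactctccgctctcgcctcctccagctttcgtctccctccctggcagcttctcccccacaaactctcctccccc
Mab21l2, chr3:86548284-86548533: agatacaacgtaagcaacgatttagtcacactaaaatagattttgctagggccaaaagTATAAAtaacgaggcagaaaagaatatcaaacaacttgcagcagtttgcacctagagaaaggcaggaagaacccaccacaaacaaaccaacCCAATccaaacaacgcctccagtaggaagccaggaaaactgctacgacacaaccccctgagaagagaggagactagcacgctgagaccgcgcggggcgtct

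The first Sall2 window was rich in A and T, with 28.0% G+C and 0 CpG, where the median of 32536 windows of the same length was 52.4% G+C and 6 CpG. It held TATAAA 145 bases and CCAAT 86 bases before the start. The second Sall2 window had 64.4% G+C and 6 CpG and matched none of the 6 motifs, which says only that these letters are not in that window. The Mab21l2 window had 46.8% G+C and 10 CpG, with TATAAA 192 bases and CCAAT 101 bases before the start. Over all windows, TATAAA stood in 12.3%, CCAAT in 33.8%, GGGCGG in 33.0%, CACGTG in 6.04%, TAATTA in 4.84% and AGGTCA in 14.0%. The arrays do not tell from which Sall2 start the measured RNA came.

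Intensities had been scaled to a common level before deposit, with a mean after trimming 2% from each end of 149 to 150 on every array, and Pearson's r between arrays was 0.952 to 0.987. On the first principal component, which held 43.4% of the variance, fissure A and C lay at -38.6 and -43.0, fissure B at -9.39 and the other 6 arrays between 4.63 and 29.5. The ratio of Gapdh signal at the 3-prime end to that at the 5-prime end measures RNA quality and rises as RNA is less intact. It ran from 4.93 to 15.0 in fissure, 4.90 to 8.77 in nasal and 4.46 to 7.42 in temporal samples. In each region the B array had the lowest ratio, so the most intact RNA by this measure, and fissure C had the highest of all. All 5 measured genes of the ventral cup and optic stalk were called higher in fissure samples. Of these genes, Ntn1 passed the filter through fissure arrays only. The list was chosen with earlier results of these data known, so the count is a description and no test of the dissection. The summed level of 7 retinal progenitor genes was 6247 to 6759 in fissure, 8125 to 8619 in nasal and 7781 to 8513 in temporal samples. Of the 7, 0 were called higher and 1 lower, Pax6 at -0.94. Pax6 averaged 1564.8 in fissure, 3199.1 in nasal and 2834.5 in temporal samples. With the letter as a block Lhx2 was also called, as higher, at 0.62. Markers of other cells also differed. All 10 macrophage and leukocyte markers were higher at the fissure (summed level 2796 to 3222, against 484 to 775 nasal and 389 to 656 temporal), as were 4 of the 6 tested lens markers (2366 to 3439, against 641 to 673 and 580 to 1196) and 3 of 9 periocular mesenchyme markers (684 to 1447, against 390 to 640 and 310 to 650). Of the 8 tested surface ectoderm markers, 4 were lower and 1 higher (491 to 556, against 1217 to 1576 and 922 to 1341). Of the 8 pigment epithelium markers, 4 were lower and 1 higher, with a median of -0.60 (summed level 10427 to 12574, against 12512 to 14725 and 11467 to 14399): Tyr and Oca2, genes of pigment synthesis, were at -1.17 and -1.39, and Mitf, the master factor of pigment cells, at 0.93. Among these lists C1qa, Aif1, Cdh1 and Eya2 passed the filter through fissure arrays only. The lens crystallin Cryaa averaged 262 in fissure samples, 14.9 nasally and 58.1 temporally, while the lens genes Foxe3 and Cryga were near 0 in every region, at 1.40 and 1.80 at the fissure. Maf made up a large part of the lens sum, averaging 1304 in fissure, 246 in nasal and 280 in temporal samples. Prox1, another tested gene of the lens list, was not called, at -0.14. The surface ectoderm markers Krt14, at 7.17, and Trp63 were too dim to be tested. The part of these cells in the values below was not tested, and in such tissue fewer cells of a type and less RNA per cell cannot be told apart.

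Sall2 was the member with a difference past the threshold, an adjusted p under 0.05 over all genes tested, in limma's fit. Its intensities were 949.4, 1076.7 and 1011.4 in fissure samples A, B and C, 482.4, 463.7 and 612.8 in nasal samples and 539.1, 670.8 and 649.5 in temporal samples (probe set 1416638_at). All 3 fissure arrays lay above all 6 others. Against the mean of nasal and temporal, Sall2 was 0.82 higher on the log2(intensity + 16) scale (SE 0.14, 95% interval 0.51 to 1.14), a fold of 1.77, with an adjusted p of 0.0039. Within the letters A, B and C the same difference was 0.88, 0.93 and 0.67.

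Against the nasal samples alone Sall2 rose by 0.95 (SE 0.16, fold 1.93, limma adjusted p = 0.0051). Against the temporal samples alone it was 0.70 higher (SE 0.16, fold 1.62, limma adjusted p = 0.0304). Leaving out any 1 fissure or temporal array ended this last call, at adjusted p values from 0.0504 (fissure B) to 0.127 (temporal A), as did a pseudocount of 1 in place of 16 (0.0516) and leaving out all 3 B arrays (0.0622). Nasal and temporal samples did not differ past the threshold in Sall2 (-0.25, SE 0.16, 95% interval -0.61 to 0.11). With the Gapdh ratio as a covariate, the Sall2 difference against the mean was 0.82 and its limma adjusted p 0.0061.

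**Figure D1:**
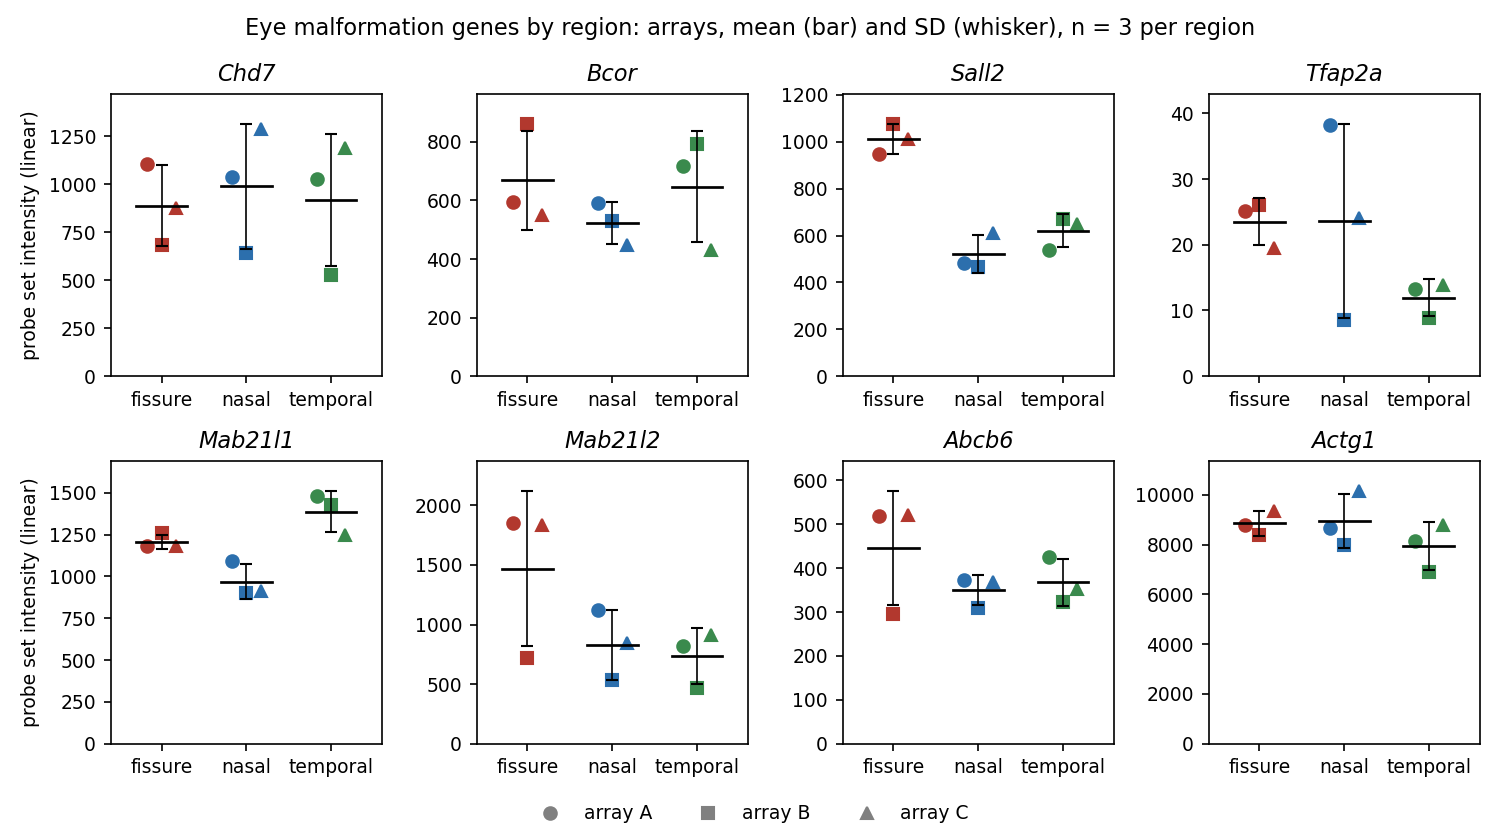
Probe set intensity (linear scale from 0) of the 8 measured genes on each array by region; circles, squares and triangles are arrays A, B and C, bars the mean and whiskers the SD over 3 arrays. The 3 fissure arrays of Sall2 lie between 949.4 and 1076.7, above the highest of the others at 670.8, while in Mab21l2 the B array is the lowest of each region.

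The other genes of the SALL and MAB21 families gave 3 tested genes of 4. Sall1, a paralogue of Sall2, was higher at the fissure, at 1.14 (SE 0.21, limma adjusted p = 0.0051), with intensities of 173.6 ± 32.1 in fissure, 111.4 ± 34.6 in nasal and 43.4 ± 12.4 in temporal samples, each a mean ± SD of 3 arrays. Against temporal samples alone Sall1 was 1.68 higher (SE 0.24, limma adjusted p = 0.0016), and against nasal samples it differed by 0.60 (SE 0.24), which did not pass the test (limma adjusted p = 0.193). For Sall1 the difference of nasal from temporal samples was 1.08, with a limma adjusted p of 0.417 without the letters and 0.0180 with the letter as a block. Sall4 differed by -0.37, with a limma adjusted p of 0.335 without the block and 0.0445 with it. Sall3, at a fissure mean of 9.87, was too dim to be tested.

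Mab21l2 was higher at the fissure within every letter, and whether it passed the test depended on how the letters and arrays were treated. With 1 mean per region and all arrays weighted alike, it passed in none of the fissure comparisons. With the letter as a block, or with arrays weighted by their residual spread, it passed in all 3. Without fissure B, or without all 3 B arrays, it also passed in all 3. Its intensities were 1849.5, 719.2 and 1838.9 in fissure samples A, B and C, 1118.6, 532.3 and 844.6 in nasal samples and 822.7, 466.8 and 909.4 in temporal samples (probe set 1418934_at). Fissure A and C lay above all the other arrays, fissure B lay among the nasal and temporal ones, and B was the lowest array of each region. Against the mean of nasal and temporal the difference was 0.84 (SE 0.34, 95% interval 0.10 to 1.57, fold 1.78), and limma's adjusted p was 0.166 with 1 mean per region. With the letter as a block the SE was 0.14 and the limma adjusted p 0.0036. The differences within letters A, B and C were 0.94, 0.51 and 1.06, higher in 3 of 3.

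Against nasal samples Mab21l2 differed by 0.75 (SE 0.39, limma adjusted p = 0.344, with the block 0.0155). Against temporal samples it differed by 0.92 (SE 0.39, limma adjusted p = 0.233, with the block 0.0062). Nasal and temporal samples differed by 0.17, with a 95% interval from -0.68 to 1.02. Without fissure B the difference from the mean was 1.28 (limma adjusted p = 0.0179), and without all 3 B arrays 0.995 (0.0082). With the Gapdh ratio as a covariate it was 0.47 (limma adjusted p = 0.326). The fissure B sample, low in Mab21l2, also had the lowest summed level of periocular mesenchyme markers among fissure samples, 684 against 1447 in A and 1390 in C; the part of either in the Mab21l2 values was not tested. RefSeq's gene table for GRCm38.p6 places Mab21l2 inside the span of Lrba, whose own probe set read 841.3 to 1039.2 in fissure, 493.3 to 939.9 in nasal and 549.8 to 869.6 in temporal samples (0.48, SE 0.22, limma adjusted p = 0.219).

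**Figure D2:**
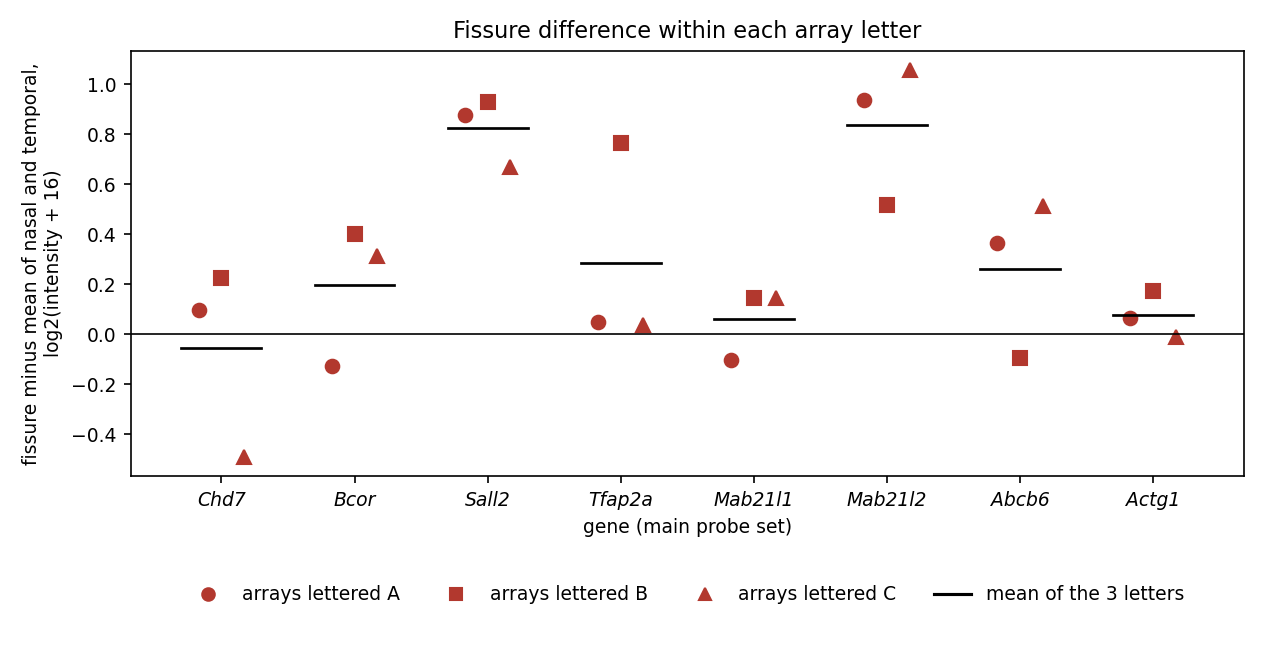
Fissure minus the mean of nasal and temporal on the log2(intensity + 16) scale, computed within letters A, B and C (circle, square, triangle) for each gene, with the mean of the 3 letters as a bar. Sall2 (0.67 to 0.93) and Mab21l2 (0.51 to 1.06) lie wholly above 0, and Chd7 ranges from -0.49 to 0.22.

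Mab21l1, the close relative of Mab21l2, had another order of regions: lowest in nasal, intermediate in fissure and highest in temporal samples. Its main probe set (1424679_at) read 1181.7, 1256.6 and 1180.7 in fissure samples, 1089.4, 902.0 and 912.1 in nasal samples and 1482.8, 1428.0 and 1249.0 in temporal samples. Every nasal array lay below every temporal and every fissure array, while fissure and temporal arrays overlapped. Nasal was 0.51 below temporal (difference -0.51, SE 0.15, 95% interval -0.84 to -0.18), with an unadjusted p of 0.00553 in limma but an adjusted p of 0.99985, and 0.421 with the letter as a block. The other Mab21l1 probe set (1421369_a_at) read 607.3, 545.9 and 566.3 in fissure, 464.3, 405.5 and 379.1 in nasal and 669.6, 773.1 and 511.3 in temporal samples, with a nasal against temporal difference of -0.61 (SE 0.18) that also failed the adjustment over all probe sets (limma adjusted p = 0.99991). Nasal arrays were the lowest there too.

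Fissure against the mean of the other regions gave 0.06 for the main Mab21l1 probe set (SE 0.13, 95% interval -0.22 to 0.35, limma adjusted p = 0.837). Against nasal samples alone it gave 0.32 (SE 0.15, limma adjusted p = 0.292), with no overlap of arrays. Mab21l1 lies inside the span of Nbea, whose probe set read 766.5 to 913.0 in fissure, 905.6 to 1042.4 in nasal and 871.8 to 1101.1 in temporal samples and differed by -0.01 (SE 0.16) between nasal and temporal samples.

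The members' counts were of 1 or 2 genes, and each is given beside the share over all genes. In fissure against the mean, 1 of the 8 measured members was called higher, where 5.72% of all tested genes were, and with the letter as a block 2 of 8, where 11.0% were. Against nasal samples the counts were again 1 (4.41% of all genes) and, with the block, 2 (8.28%). Against temporal samples they were 1 (3.47%) and, with the block, 2 (7.70%). The arrays did not overlap, with fissure higher, for 1 of 8 members against the mean (8.41% of all genes), for 2 against nasal (Sall2 and Mab21l1, 13.1%) and for 1 against temporal (Sall2, 12.1%). Tfap2a is left out of this last count, since its probe set passed the filter through fissure and nasal arrays only. The 12.1% leaves out no such genes, and on the same rule the members' count was 2 (Sall2 and Tfap2a). A gene is 12.5% of the 8, so the counts do not place the members apart from other genes. The median difference of the 8 members, Tfap2a included, from the mean of nasal and temporal was 0.23, beside 0.04 over all genes.

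Between nasal and temporal samples limma called 0 of 8 members, with or without the block, and 1 (Mab21l1) had an unadjusted p under 0.05. The share of all genes at that unadjusted level was not counted, so such counts, here and for the lists, have no background. Over all genes 0.0470% were called in either direction without the block and 0.133% with it. Mab21l1 was the 1 member whose nasal arrays all lay below the temporal ones, as did those of 3.71% of all genes. The median difference of the members was 0.04, beside -0.00 over all genes.

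**Figure D3:**
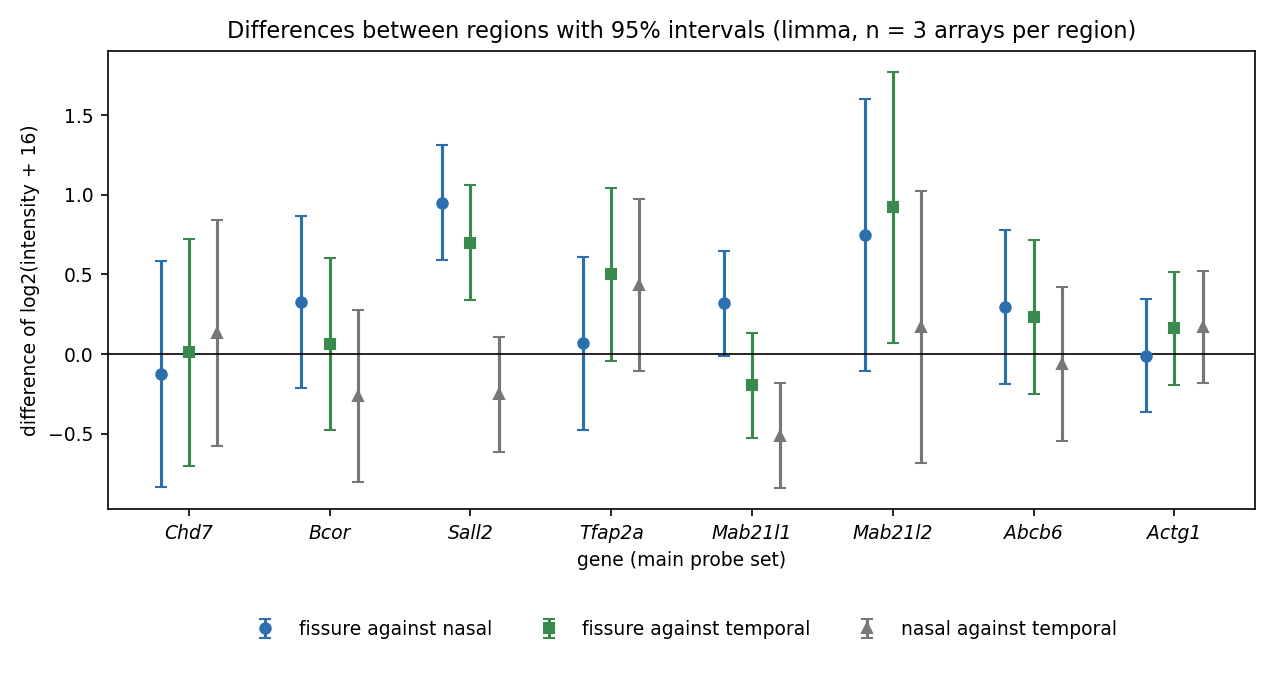
Difference between regions on the log2(intensity + 16) scale for each gene, with 95% intervals from limma (3 arrays per region): circles are fissure minus nasal, squares fissure minus temporal, triangles nasal minus temporal. Both fissure intervals of Sall2 lie above 0 (0.59 to 1.31 and 0.34 to 1.06), and the nasal minus temporal interval of Mab21l1 lies below 0.

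Of the chromatin genes, Bcor gave different values by probe set. Its main probe set (1429438_at) read 594.7, 861.7 and 549.7 in fissure samples, 590.4, 530.5 and 446.9 in nasal samples and 715.9, 793.8 and 432.4 in temporal samples. The regions overlapped, and the difference from the mean was 0.20 (SE 0.21, 95% interval -0.27 to 0.66, limma adjusted p = 0.650). Fissure B was the highest array of all, and without it the difference was 0.0027, and with array weights 0.0077; with the Gapdh ratio as a covariate it was 0.37 (limma adjusted p = 0.306). C was the lowest array in each region, as in 6.90% of all genes.

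A second Bcor probe set (1452910_at) read 100.8, 117.6 and 120.7 in fissure samples, 69.0, 52.3 and 58.9 in nasal samples and 90.2, 70.7 and 76.5 in temporal samples. All 3 fissure arrays lay above the rest. In the fit over 23510 probe sets it was 0.60 above the mean of nasal and temporal (SE 0.14, limma adjusted p = 0.0294) and 0.76 above nasal (SE 0.16, limma adjusted p = 0.0242); 3.82% and 2.73% of all probe sets were called higher in these comparisons. Against temporal samples it differed by 0.44 (limma adjusted p = 0.205). The remaining Bcor probe set (1428773_s_at) read 299.3 to 399.2 in fissure, 223.3 to 244.0 in nasal and 221.7 to 281.0 in temporal samples, again without overlap, with a difference of 0.43 (SE 0.15) and a limma adjusted p of 0.134. Averaged over its probe sets, Bcor differed by 0.41 (limma adjusted p = 0.0656). All 3 probe sets thus gave a positive difference on the same arrays, and 1 of them passed the test. The one that passed was the dimmest, with a mean of 84.1 beside 276 and 613. The share of all probe sets whose fissure arrays lay above the rest was not counted. Over all genes it was 8.41%. The name of 1428773_s_at marks probes that can match related transcripts. The difference of the main probe set went to 0.0027 without fissure B.

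**Figure D4:**
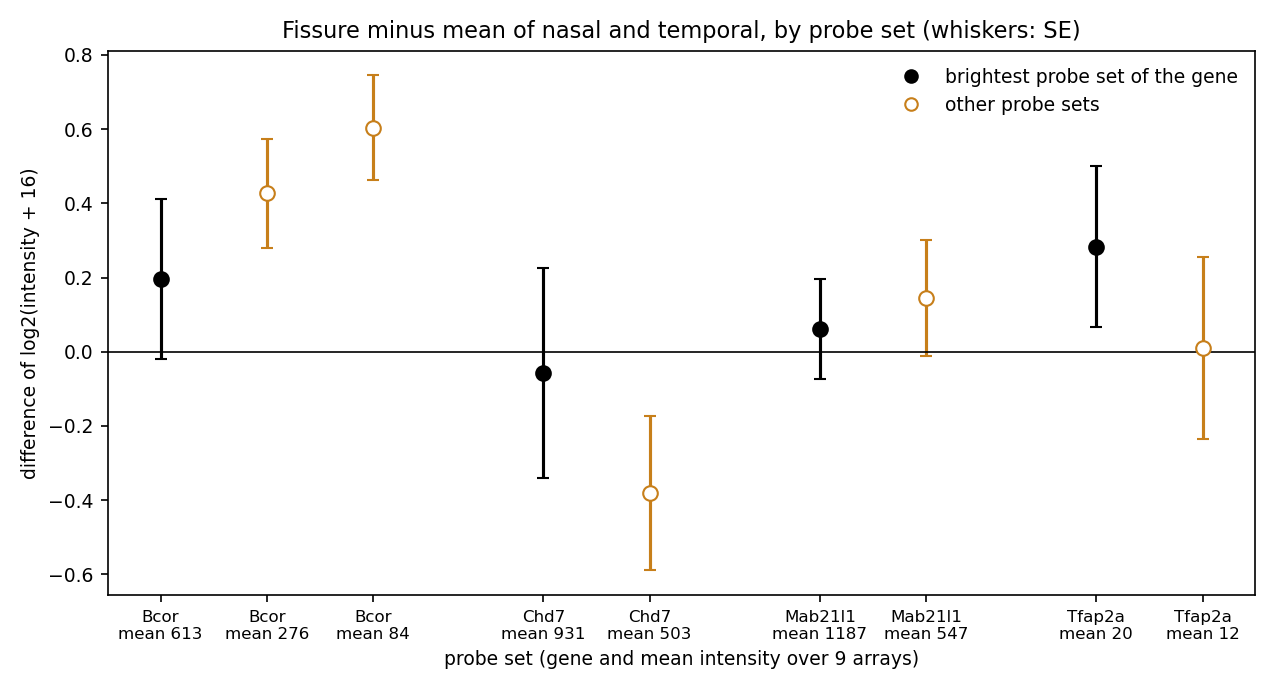
Fissure minus the mean of nasal and temporal, log2(intensity + 16), for each tested probe set of the genes with several, labelled with the mean intensity over 9 arrays; filled points are the main probe sets, open points the others, whiskers the SE. The Bcor probe sets run from 0.20 to 0.60 and those of Chd7 from -0.38 to -0.06.

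Of BCOR's relatives and partners in its Polycomb complex, 9 of 11 listed genes were tested; limma called 0, and 0 had an unadjusted p under 0.05. Their differences from the mean ran from -0.28 in Bcl6, the factor that gave BCOR its name, to 0.23 in Kdm2b, the subunit that binds unmethylated CpG islands. Their median was 0.01.

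In Chd7 the regions overlapped. Its main probe set (1437745_at) read 1104.3, 684.0 and 876.1 in fissure samples, 1037.0, 642.8 and 1288.0 in nasal samples and 1027.7, 529.1 and 1188.7 in temporal samples. B was the lowest array everywhere, and the spread within a region was wider than the gaps between regions. The difference from the mean was -0.06 (SE 0.28, limma adjusted p = 0.938), with a 95% interval from -0.67 to 0.56. The other probe set (1448026_at) read 390.9, 384.5 and 451.3 in fissure samples, 567.3, 317.3 and 631.5 in nasal samples and 640.9, 645.5 and 501.6 in temporal samples. There the fissure arrays lay below all temporal arrays, by 0.52 (difference -0.52, SE 0.24, limma adjusted p = 0.326), without passing the test. Of the other CHD remodellers, limma called 0 of 9, and 1 had an unadjusted p under 0.05; their differences ran from -0.39 in Chd1 to 0.33 in Chd2.

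Tfap2a was near the background of the arrays. Its main probe set (1421996_at) read 25.1, 26.0 and 19.5 in fissure samples, 38.2, 8.6 and 24.0 in nasal samples and 13.2, 8.8 and 13.9 in temporal samples, and lay above the array's 40th percentile (15.7 to 17.5) on 5 of 9 arrays, none of them temporal. Every fissure array was above every temporal array, with a difference of 0.50 (SE 0.25, limma adjusted p = 0.318), and the nasal arrays spanned both. The difference of fissure from the mean was 0.28 (SE 0.21, limma adjusted p = 0.492). As the gene passed the filter only through fissure and nasal arrays, this difference is given as a description only. The other Tfap2a probe sets read 2.2 to 19.9 (1421995_at, passing the filter on 3 arrays, difference from the mean 0.01, SE 0.25) and 4.1 to 16.1 (1426048_s_at, above it on 0 arrays and not tested).

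Other AP-2 factors and their partners gave 5 tested genes of 9. Cited2, a coactivator of AP-2 factors, was higher at the fissure by 0.82 (limma adjusted p = 0.0119) and was the only one called. Against temporal samples alone Cited2 was 0.96 higher (SE 0.20, limma adjusted p = 0.0154), and against nasal samples it differed by 0.68 (SE 0.20), which did not pass the test (limma adjusted p = 0.0713). With the letter as a block Tfap2b, a sister factor, was called as well at 0.79 (limma adjusted p = 0.0712 without and 0.0119 with the block), and Kctd1, an inhibitor of AP-2 factors, at -0.51 (0.0739 and 0.0445).

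Gdf6 itself is not analysed here, and the BMP and GDF pathway was read through 29 tested genes of 37. At the fissure limma called 3 higher and 3 lower, and with the letter as a block 5 and 5; the median was -0.08. The receptor Bmpr1b was higher by 2.06 (limma adjusted p = 1.1e-04), the ligand Bmp7 by 1.08 (0.0049) and Id4, a BMP target, by 1.18 (0.0015). Lower were Bambi, a decoy receptor (-1.67, limma adjusted p = 0.0036), and the ligand Bmp2 (-0.80, 0.0107). Against temporal samples alone Bmp2 did not pass the test (limma adjusted p = 0.148). The remaining lower call was the target Msx2, which averaged 4.77 in fissure, 9.80 in nasal and 32 in temporal samples and passed the filter through temporal arrays only. Between nasal and temporal samples 0 of 29 were called, with 4 at an unadjusted p under 0.05.

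Abcb6, the porphyrin transporter, read 518.7, 295.5 and 522.2 in fissure samples, 372.9, 310.2 and 368.3 in nasal samples and 426.6, 322.9 and 353.5 in temporal samples (1422524_at). Fissure A and C were the highest of all arrays and fissure B the lowest of all. The difference from the mean was 0.26 (SE 0.19, 95% interval -0.16 to 0.68, limma adjusted p = 0.476), and within letters A, B and C it was 0.37, -0.09 and 0.51. Abcb6 passed the test, among the alternatives run, only when arrays were weighted by their residual spread, a fit that gave fissure B the lowest weight (0.39, limma adjusted p = 0.0378). Leaving out 1 fissure array gave 0.13 (without C) to 0.52 (without B, limma adjusted p = 0.0512), and with the Gapdh ratio as a covariate the difference was 0.075 (limma adjusted p = 0.857).

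Haem synthesis and mitochondrial transport genes were measured for 16 of 18 listed, all tested. Limma called 0 of them at the fissure, with 5 at an unadjusted p under 0.05, and 4 with the letter as a block, all higher: Urod (0.65) and Alas2 (0.69), enzymes of haem synthesis, the mitochondrial carrier Slc25a39 (0.64) and the haem oxygenase Hmox2 (0.39). Their summed level was 9791, 6132 and 10938 in fissure samples A, B and C, and 5821 to 8420 in nasal and 4883 to 7207 in temporal samples, so that fissure B was low here as in Abcb6. Erythroid markers summed to 13351 to 17837 in fissure, 9472 to 14821 in nasal and 11537 to 13360 in temporal samples, with fissure B the lowest of the fissure samples, and 3 of their 7 tested genes were called higher with the block and 0 without it, with 3 at an unadjusted p under 0.05. The part of red blood cells in the Abcb6 values was not tested.

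Actg1 showed no difference past the threshold. It read 8801.8, 8378.5 and 9365.5 in fissure samples, 8684.4, 7995.4 and 10139.7 in nasal samples and 8143.2, 6895.8 and 8801.9 in temporal samples (1415779_s_at). In each region the C array was the highest and the B array the lowest. The difference from the mean was 0.08 (SE 0.14, limma adjusted p = 0.807), with a 95% interval from -0.23 to 0.38. The name of the probe set marks probes that can match related transcripts, and the actins are near-identical in places, so the share of Actg1 in this signal is uncertain. Of 17 tested actins and actin regulators, limma called 1, Gsn, the actin-severing gelsolin, at 1.51 (adjusted p = 4.1e-04), and Actb, cytoplasmic beta-actin, differed by -0.02.

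Array B was the lowest of its region in all 3 regions for Chd7, Mab21l2, Abcb6 and Actg1, 4 of the 8 members; over all tested genes 17.6% had this pattern and 10.5% had B highest throughout. Between members, log2(intensity + 16) over the 9 arrays went together most for Mab21l2 and Abcb6 (Pearson's r = 0.884) and for Chd7 and Actg1 (0.795), and went opposite ways most for Bcor and Actg1 (-0.661). These values describe arrays that share regions and letters, and Chd7, Actg1, Mab21l2 and Abcb6 share a low B array.

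The same measure over the 9 arrays gave the genes most like each member among all tested genes. For Sall2 they were Rsrp1 (0.970), Id4 (0.964) and Uqcc3 (0.963); Id4 read 88.6 to 155.7 in fissure, 27.3 to 38.0 in nasal and 42.2 to 62.0 in temporal samples, the same order of regions as Sall2. For Mab21l2 they were Spg21 (0.983), Tusc3 (0.977) and Ndrg3 (0.977). For Mab21l1 they were Cdh11, a cadherin, (0.941), Hipk3 (0.940) and the dim Ermn (0.899). Cdh11 read 2631 to 2960 in fissure, 1876 to 2138 in nasal and 2909 to 3264 in temporal samples, lowest in nasal as Mab21l1 was.

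For the remaining members the leading genes were Tnpo3 (0.996), Coa8 (0.976) and Zfp746 (0.972) with Chd7, Asxl2 (0.944), Araf (0.939) and Cln8 (0.937) with Bcor, and Cmtm7 (0.972), Tmbim6 (0.965) and Tbc1d22b (0.961) with Abcb6. Actg1 went with Nsrp1 (0.974), Csf1 (0.970) and Timm8b (0.962), and Tfap2a with Lca5l (0.896), Syn1 (0.892) and Gdpgp1 (0.886). Tnpo3 read 685.3 to 922.6 in fissure, 645.1 to 1027.4 in nasal and 562.7 to 1010.8 in temporal samples. Its regions overlapped as those of Chd7 did, with a narrower spread within each region.

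Other genes linked to coloboma and eye malformation give the setting for these values. Of 58 listed, 53 had a probe set and 50 were tested. At the fissure limma called 11 higher and 3 lower, with a median of 0.07, and with the letter as a block 14 and 6. Over all 12773 tested genes it called 730 higher and 368 lower, and with the block 1403 and 762. Vax1, a homeodomain factor of the ventral cup, was higher by 3.77, Smoc1, a secreted matrix protein, by 3.75 and Maf, a leucine zipper factor of the lens, by 2.24 (limma adjusted p = 3.3e-06, 6.2e-05 and 5.8e-05). Ntn1, the guidance cue netrin, is among the 11 but passed the filter through fissure arrays only: it averaged 270 there (SD 135), 2.93 in nasal and 12.2 in temporal samples. Lower were Sema3e (-2.38), a secreted semaphorin, Pax6 (-0.94), a master factor of the eye, and Fras1 (-0.65), a basement membrane protein. Fras1 was close to the threshold (limma adjusted p = 0.0496). It passed against neither nasal (limma adjusted p = 0.125) nor temporal samples (0.0920) alone. Sall2, at 0.82, thus lay among the smaller of the called differences, equal in size to that of Nr2f1 (0.82), a nuclear receptor. Against temporal samples alone Nr2f1 did not pass the test (limma adjusted p = 0.0909). Between nasal and temporal samples limma called 0 of the 50, with 2 at an unadjusted p under 0.05, and with the block 1 higher in nasal samples, Sall1, and 1 lower, Tenm3, a teneurin of neuronal wiring (-1.08, adjusted p = 0.0219).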

How the data were processed

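The authors deposited an intensity on a linear scale for each of 45101 probe sets on each array. Labelling followed the standard Affymetrix protocol, per the labels' protocols; how probes were summarised and scaled, and the build, are not given in the sources used here. Gene names came from the platform annotation, which can be old: 34945 probe sets had 1 symbol, 932 several and 9160 none, and 64 were controls. Without further scaling, log2(intensity + 16) was fitted with limma 3.58.1 in R 4.3.3, with 1 mean per region over all 9 arrays, for genes that exceeded percentile 40 of an array on 3 arrays or more, and p-values were adjusted over all genes by Benjamini-Hochberg; 13 of the 14 probe sets of the members passed the same filter in a second fit by probe set. The pseudocount of 16 makes folds of dim genes smaller than they are. The number of arrays limits the precision.

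Once region means were subtracted, r between arrays was 0.166 to 0.486 in the 9 pairs with a common letter and -0.438 to 0.218 in the other 18, so the letters count as pairs here, on the data alone, and a second model had the letter as a block. The members and the 17 lists were chosen with earlier results of these data known. Named list genes were the 4 with the smallest p among those called; Bmp2, Msx2, Sema3e, Pax6, Fras1, Nr2f1, Actb, the genes that passed the filter through 1 region only, the lens genes, the genes called only with the block and the extremes of lists without calls were named after their values were seen. Sequences are RefSeq's on GRCm38.p6. The fit was tested on simulated data. Alternatives covered the filter, pseudocount, quantile normalization, probe set summary, variance model, array weights, block, regions in the fit and each array; 2 more, without the B arrays and with the Gapdh ratio, were added after seeing the data. Figures used matplotlib 3.10.9.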

Additional observations from a re-analysis of the deposited data

How the results depend on the processing

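Over 371 differences of members under alternatives that leave out no single array, 347 kept their direction and their side of the threshold; 288 more leave out 1 array, and 260 of those did. The alternatives that moved a call concern Mab21l2, Sall2 against temporal and Abcb6, as given with those genes. Array weights called Mab21l2 in all 3 fissure comparisons and Abcb6 against the mean only. Counts of all genes called were 1098 against the mean, 814 against nasal, 685 against temporal and 6 between nasal and temporal. They became 4099, 2669, 3133 and 10 with array weights and 2165, 1590, 1541 and 17 with the letter as a replicate block. Between nasal and temporal the count was 3 with only the regions compared, 3 without the B arrays and 10 with the Gapdh ratio. Leaving out 1 array gave 545 to 1721, 420 to 1245, 372 to 1161 and 2 to 8. Members called were 3, 2 and 2 in the fissure comparisons with array weights, 2 in each with the block (Mab21l2 added; the block changed no other member's call), 2 against the mean and 2 against nasal without the B arrays, and 0 against temporal with a pseudocount of 1; leaving out 1 array gave 1 to 2, 1 to 2 and 0 to 1. Reversed values numbered 31, none past the test (largest size 0.337, lowest limma adjusted p 0.387). They were -0.017 (quantile normalization) and -0.014 (Gapdh ratio) for Actg1 against the mean, -0.14 (array weights) for Bcor against temporal, 0.052 against the mean and 0.033 against nasal (array weights) for Chd7, -0.26 (mean of probe sets), -0.17 (without B arrays) and -0.26 (Gapdh ratio) for Chd7 against temporal, -0.073 (mean of probe sets) for Chd7 between nasal and temporal, -0.013 (array weights) for Mab21l1 against the mean, and -0.10 (array weights) and -0.29 (without B arrays) for Tfap2a against nasal. Leaving out 1 array, values crossed 0 for Chd7 against the mean (-0.23 to 0.11), nasal (-0.40 to 0.092), temporal (-0.34 to 0.24) and between nasal and temporal (-0.21 to 0.41), Bcor against temporal (-0.20 to 0.23), Actg1 (-0.086 to 0.085) and Tfap2a (-0.24 to 0.33) against nasal, and Abcb6 (-0.15 to 0.046) and Mab21l2 (-0.12 to 0.45) between nasal and temporal. The cause was not tested. Tfap2a, near background, has no usable direction.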
